A study of Mus musculus with 6 samples.

Results

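Aminoacyl-tRNA synthetases are the enzymes that attach each amino acid to its matching tRNA, and 38 of their genes were examined in I1DN leukemia cells from mice treated with vehicle or AG636, which inhibits DHODH (dihydroorotate dehydrogenase, an enzyme of pyrimidine synthesis). The genes were chosen by name: 20 encode cytosolic synthetases, 16 encode mitochondrial synthetases and 2, *Aimp1* and *Aimp2*, encode scaffold proteins of the multi-synthetase complex. All 38 were found among the 54838 gene identifiers of the count table, and all 38 passed the filter on low counts, which left 11092 genes. Levels of messenger RNA were measured by QuantSeq, a method that sequences one end of each transcript, so that reads per gene do not grow with transcript length.

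I1DN is a murine AML driven by IDH1R132H, DNMT3AR882H and NrasG12D on a C57BL/6 background. It was made by retroviral delivery of these mutants to fetal liver stem and progenitor cells, and it was passed on by transplantation into Ptprca mice that had received sublethal irradiation and keep their own blood cells in part. The leukemia in both groups thus carries the same 3 mutations. AML cells were sorted from bone marrow and spleen of 3 mice given vehicle and 3 mice given AG636 by mouth, 100 mg/kg b.i.d., and each mouse gave 1 library. The duration of treatment was given as 1 day in one place and as 4 days in another, and the sorted population as cKit+CD11b- or as cKit high CD11b low. The ages of the mice were not given in the sources used here. P-values therefore measure the spread between mice that carried 1 leukemia model.

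Synthetases fall into 2 unrelated structural classes, and each enzyme selects its amino acid and its tRNAs before the charged tRNA is handed to an elongation factor at the ribosome. The cytosolic and the mitochondrial compartments mostly use different genes, all of them nuclear, with shared genes for glycine (*Gars*) and lysine (*Kars*). In the cytosol some synthetases are held in a multi-synthetase complex together with scaffold proteins, and the others are free-standing. Many cytosolic synthetase genes are known as targets of ATF4, the transcription factor of the integrated stress response, which is best known for raising them when amino acids run short.

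Libraries held between 4634963 and 7906589 counts. A level of 3 counts corresponds to between 0.379 and 0.647 CPM (counts relative to the scaled library size), which covers counting error only. Mitochondrial transcripts took between 2.92% and 4.50% of the counts, and the 10 most abundant genes between 7.26% and 8.39%. *Kit*, which defines the sorted cells, lay between 31.8 and 43.1 CPM with vehicle and between 37.3 and 46.3 CPM with AG636, and its groups overlapped. *Itgam*, which encodes CD11b, was higher with AG636 (log2 fold change 1.21 ± 0.31 SE, adjusted p = 0.0219), and *Flt3* was too low to test. These 3 belong to a list of 9 genes for the identity of immature AML cells, of which 8 could be tested. Of those 8, 2 rose, *Itgam* among them, and 0 fell. Their median log2 fold change was 0.55, with 7 above 0 and 1 below. Of 10 neutrophil markers 7 rose with AG636, where 10.3% of all genes tested rose, and their summed level was between 1042 and 2378 CPM with vehicle and between 2901 and 5896 CPM with AG636. In such bulk samples, fewer cells of a type and less RNA per cell cannot be told apart.

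The cytosolic synthetases were lower with AG636 almost throughout. Of the 20 genes, 18 fell and 0 rose at an adjusted p under 0.05 (edgeR's quasi-likelihood test, Benjamini-Hochberg adjustment over all 11092 genes). At an unadjusted p under 0.05, 0 of the 20 rose too, and DESeq2 and limma-voom also gave 0. In the same comparison 11.0% of all genes tested fell. The median log2 fold change of the cytosolic synthetases was -0.79, compared with 0.03 over all genes, and summed over the 20 genes the level was 59.7% of vehicle. All 20 had log2 fold changes below 0 under each scaling of the libraries that was tried, although *Vars* was practically unchanged with library size alone (-0.0, adjusted p = 0.996). Over all genes 1222 were called lower and 1146 higher, and with scaling by library size alone 913 were lower and 1483 higher, and 18 cytosolic synthetases were called lower there too.

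Few mitochondrial synthetases passed the test. Of the 16 genes 3 fell (*Rars2*, *Yars2* and *Vars2*), or 18.8% beside the 11.0% of all genes that fell, and 0 rose. Their median log2 fold change was -0.36, and the difference between the compartments as groups was not tested. Again 0 rose at an unadjusted p under 0.05, with DESeq2 or with limma-voom. Summed over the 16 genes, the level was 73.7% of vehicle. In 15 of the 16 genes the log2 fold change was below 0, although *Aars2* and *Wars2* turned positive when libraries were scaled by their size alone. The count that fell rests on few libraries, being 1 without AG636 replicate 1 and 5 without Vehicle replicate 3. Of the scaffolds, *Aimp2* fell and *Aimp1* did not pass the threshold.

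**Figure D1:**
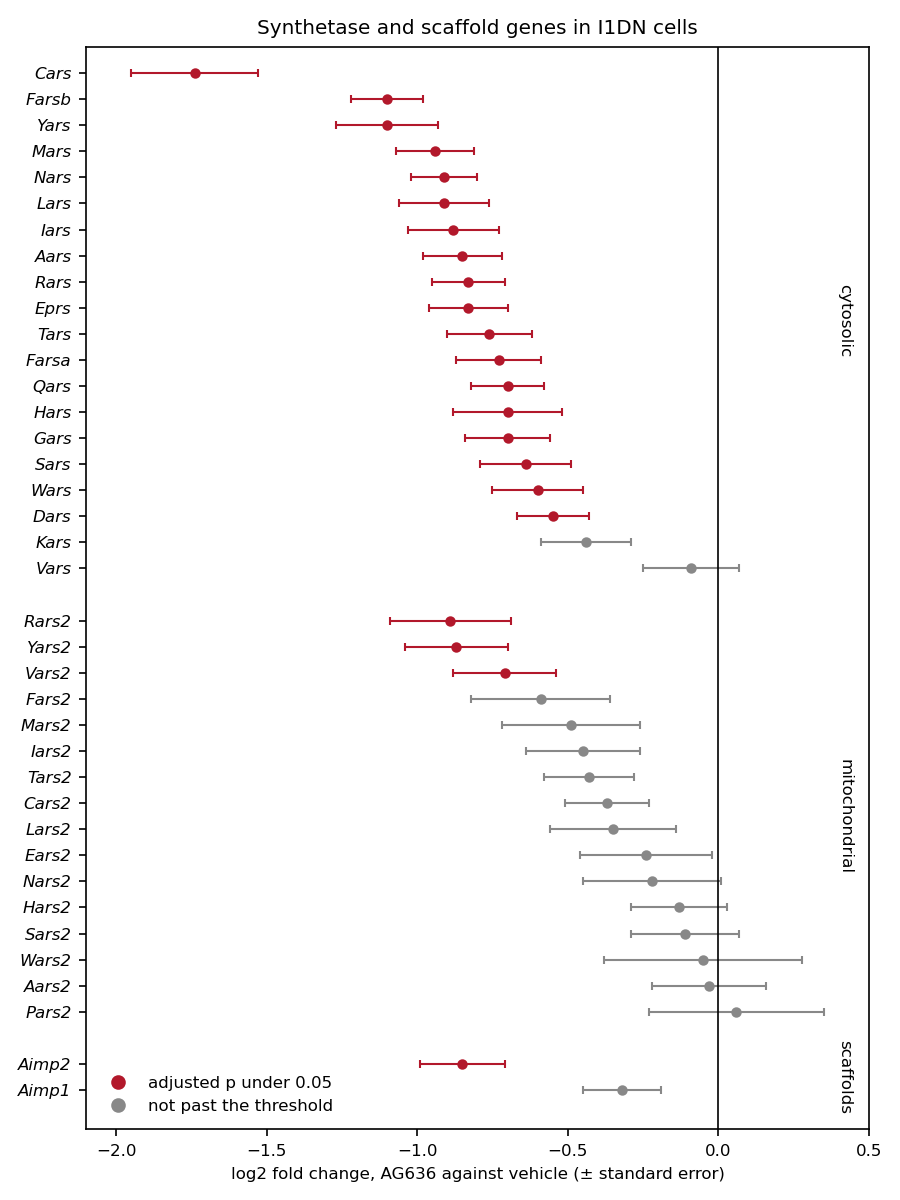
Log2 fold change of AG636 against vehicle (x axis) with its standard error for each of the 38 genes (y axis), grouped as cytosolic, mitochondrial and scaffold; red points have an adjusted p under 0.05. *Cars* lies farthest to the left at -1.74, and only *Pars2* lies above 0, joined by *Aars2* and *Wars2* when libraries are scaled by size alone.

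*Cars*, which encodes cysteinyl-tRNA synthetase (ENSMUSG00000010755, minus strand of chr7:143557230-143600090, mm10), showed the largest decrease of the 38 genes. Its level was 60.4, 42.1 and 41.6 CPM in the vehicle samples and 15.7, 15.7 and 11.9 CPM in the AG636 samples. The 3 treated samples were thus all far below the lowest control, at 30.0% of the vehicle mean (log2 fold change -1.74 ± 0.21 SE, adjusted p = 0.00242). Among all 11092 genes it ranked 60 by size of decrease. *Cars* was also the least abundant cytosolic synthetase in vehicle samples, counted by reads from transcript ends, at 48.0 ± 10.7 CPM (SD, n = 3).

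*Farsb* encodes the beta subunit of phenylalanyl-tRNA synthetase and had the lowest adjusted p of the 38 genes (minus strand of chr1:78417975-78488897). It measured 339, 330 and 282 CPM with vehicle and 140, 154 and 152 CPM with AG636, so that the groups were separated by a wide gap. The log2 fold change was -1.10 ± 0.12 (SE, adjusted p = 0.00202). *Farsa*, the gene for the alpha subunit with which it forms one enzyme, fell by 0.73 ± 0.14 on the log2 scale (SE, adjusted p = 0.00999). Both subunit genes were therefore lower, and the difference between them was not tested.

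*Nars*, for asparaginyl-tRNA synthetase, had the smallest standard error of the 38 genes. Its level was 255, 240 and 247 CPM with vehicle and 140, 128 and 126 CPM with AG636 (log2 fold change -0.91 ± 0.11 SE, adjusted p = 0.00232). *Mars*, for methionyl-tRNA synthetase, which also charges the initiator tRNA, was at 153, 144 and 140 CPM with vehicle and at 83.3, 80.0 and 64.4 CPM with AG636 (-0.94 ± 0.13, adjusted p = 0.00329). In both genes every treated sample was below every control. The last exon of *Mars* shares 68 bases with *Ddit3* on the other strand, and whether counting used strand was not given in the sources used here, so reads there cannot be told apart; *Ddit3* fell as well (log2 fold change -0.76).

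*Rars*, which charges arginine, had 160, 138 and 156 CPM with vehicle and 86.4, 89.7 and 79.7 CPM with AG636 (log2 fold change -0.83 ± 0.12 SE, adjusted p = 0.00382). *Aars*, which charges alanine, had 124, 109 and 117 CPM with vehicle and 60.5, 72.4 and 62.1 CPM with AG636 (-0.85 ± 0.13, adjusted p = 0.00408). Its exons share 1326 bases with *Exosc6* on the same strand, which had 0 counts, so reads there cannot be told apart. Neither *Rars* nor *Aars* had overlapping groups. *Eprs* is a fused enzyme that charges both glutamate and proline and was the most abundant of the 38 genes by counts. It measured 525, 421 and 446 CPM with vehicle and 278, 272 and 231 CPM with AG636 (-0.83 ± 0.13, adjusted p = 0.00411), and again the groups stood apart.

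The remaining cytosolic genes that fell spanned log2 fold changes from -1.10 to -0.55. The largest of these was in *Yars*, for tyrosine (-1.10 ± 0.17 SE, adjusted p = 0.00453). The genes for the branched-chain amino acids leucine and isoleucine were *Lars* (-0.91 ± 0.15, adjusted p = 0.0057) and *Iars* (-0.88 ± 0.15, adjusted p = 0.00555). *Tars*, for threonine, changed by -0.76 ± 0.14 (adjusted p = 0.00725). *Qars*, for glutamine, changed by -0.70 ± 0.12 (adjusted p = 0.00677). *Hars*, for histidine, changed by -0.70 ± 0.18 (adjusted p = 0.0231). The smallest decreases that passed were in *Sars*, for serine (-0.64 ± 0.15, adjusted p = 0.0165), *Wars*, for tryptophan (-0.60 ± 0.15, adjusted p = 0.0234), and *Dars*, for aspartate (-0.55 ± 0.12, adjusted p = 0.0138). These calls were the less secure ones: without AG636 replicate 3 the calls of *Dars*, *Hars*, *Sars* and *Wars* were lost, which left 14. *Hars* and *Wars* were also lost without Vehicle replicate 1 or AG636 replicate 1, and *Sars* without Vehicle replicate 2.

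The shared genes for glycine and lysine differed in their calls. *Gars*, whose gene serves both compartments, measured 305, 255 and 248 CPM with vehicle and 159, 190 and 149 CPM with AG636 and fell (log2 fold change -0.70 ± 0.14 SE, adjusted p = 0.00904). *Kars*, which also serves both, measured 302, 273 and 238 CPM with vehicle and 204, 229 and 167 CPM with AG636. Its groups did not overlap, but the gap between the lowest control and the highest treated sample was narrow (-0.44 ± 0.15, adjusted p = 0.0564). The call depended on the test: DESeq2 gave an adjusted p of 0.0358 and limma-voom 0.0512, and over all alternatives it ranged from 0.011 to 0.186. The difference between *Gars* and *Kars* was not tested.

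*Vars*, for valine, was the exception, and it is described here because of its value. Its level was 221, 198 and 161 CPM with vehicle and 180, 212 and 153 CPM with AG636. The samples of the groups intermingled, at a log2 fold change of -0.09 ± 0.16 (SE, adjusted p = 0.706), and without AG636 replicate 3 the sign turned. Its groups were the only ones to overlap among the cytosolic synthetases, since in the other 19 every treated sample was below every control. Over all genes tested 20.6% were separated in this direction.

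The cytosolic enzymes were also described by membership of the multi-synthetase complex, with no test between the groups. Of its 8 enzymes 7 fell, with a median log2 fold change of -0.83. Of the 12 free-standing ones 11 fell, with a median of -0.74. Over all genes tested 11.0% fell. *Aimp2*, a scaffold of that complex, measured 132, 124 and 101 CPM with vehicle and 70.7, 61.9 and 65.3 CPM with AG636. This was a clear separation (-0.85 ± 0.14 SE, adjusted p = 0.00501), although its exons share 487 bases with *Eif2ak1* on the other strand. *Aimp1*, another scaffold, measured 159, 153 and 158 CPM with vehicle and 134, 135 and 107 CPM with AG636. Its groups did not overlap either, yet its change of -0.32 ± 0.13 did not pass (adjusted p = 0.0933). It shares 163 exon bases with *Tbck* on the other strand. By structural class, over both compartments, 11 of 18 class I enzymes fell (median -0.70) and 9 of 17 class II enzymes fell (median -0.59). These counts too stand beside 11.0% of all genes.

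Promoter sequence was examined for what the cytosolic genes share. RefSeq windows of 300 bases, from 250 before to 50 after a transcript start (GRCm38.p6), were at hand for 28 of the 38 genes. The part of the composite ATF4 and C/EBP element that reads TGATGNAA was searched on both strands. It was present in 5 of 12 cytosolic synthetases (*Aars*, *Gars*, *Iars*, *Tars* and *Yars*), in 0 of 14 mitochondrial ones and in 4.51% of all 27025 genes with a window (3.97% of the 32851 windows). The E-box CACGTG, which MYC and related factors bind, was in 4 of 12 cytosolic genes (*Aars*, *Farsb*, *Iars* and *Tars*), in 1 of 14 mitochondrial genes (*Ears2*) and in 8.09% of all genes (7.15% of windows). The YY1 core AAGATGG was in 1 of 12 cytosolic genes (*Farsa*), in 3 of 14 mitochondrial genes (*Aars2*, *Wars2* and *Yars2*) and in 7.28% of all genes (6.34% of windows). No matches of different motifs overlapped. A match describes these letters and is neither a binding site nor a cause.

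The 4 windows of genes called lower that hold TGATGNAA with the lowest adjusted p are shown, since they let the position of the element be compared with the start. They run 5′ to 3′ on the strand of the gene, with the element or its reverse complement TTNCATCA in capitals. Positions are chr8:111033592-111033891 (plus strand) for *Aars*, chr4:129189653-129189952 (plus) for *Yars*, chr13:49681880-49682179 (plus) for *Iars* and chr15:11399609-11399908 (minus) for *Tars*.
Aars: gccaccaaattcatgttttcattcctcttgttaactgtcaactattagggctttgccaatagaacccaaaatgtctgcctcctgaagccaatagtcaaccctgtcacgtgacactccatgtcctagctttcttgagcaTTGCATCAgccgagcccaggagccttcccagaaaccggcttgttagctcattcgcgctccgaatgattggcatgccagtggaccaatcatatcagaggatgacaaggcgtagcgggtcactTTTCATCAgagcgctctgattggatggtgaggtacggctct
Yars: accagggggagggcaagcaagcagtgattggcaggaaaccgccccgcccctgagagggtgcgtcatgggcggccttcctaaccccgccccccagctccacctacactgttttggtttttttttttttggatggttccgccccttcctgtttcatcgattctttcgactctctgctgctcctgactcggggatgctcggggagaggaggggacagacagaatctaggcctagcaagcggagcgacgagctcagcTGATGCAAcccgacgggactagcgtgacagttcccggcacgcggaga
Iars: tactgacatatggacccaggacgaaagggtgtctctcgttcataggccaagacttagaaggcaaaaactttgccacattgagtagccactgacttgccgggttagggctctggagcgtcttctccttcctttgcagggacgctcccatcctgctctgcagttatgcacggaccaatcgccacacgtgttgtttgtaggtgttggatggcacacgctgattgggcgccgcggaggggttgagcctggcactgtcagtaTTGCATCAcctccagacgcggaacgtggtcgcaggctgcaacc
Tars: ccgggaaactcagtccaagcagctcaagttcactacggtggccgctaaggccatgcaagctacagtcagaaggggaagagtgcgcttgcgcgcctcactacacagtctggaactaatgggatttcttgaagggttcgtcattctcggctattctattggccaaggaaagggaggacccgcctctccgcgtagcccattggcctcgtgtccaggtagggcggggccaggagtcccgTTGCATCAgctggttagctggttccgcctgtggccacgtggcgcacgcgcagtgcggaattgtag
*Aars* holds the element at 2 places, with first bases at -112 and 10 from the start. In *Yars* it begins at 4, in *Iars* at 8 and in *Tars* at -15, so in each of these 4 genes an element begins between -15 and 10. *Aars*, *Iars* and *Tars* hold the E-box too.

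The other 3 genes shown were picked among genes called lower, so that lower levels in them follow from that choice. *Yars* measured 85.2, 68.5 and 63.5 CPM with vehicle and 32.7, 39.8 and 28.7 CPM with AG636. *Iars* measured 136, 103 and 134 CPM with vehicle and 70.7, 72.0 and 59.7 CPM with AG636. *Tars* measured 166, 125 and 164 CPM with vehicle and 91.3, 92.2 and 85.9 CPM with AG636. No treated sample reached the lowest control in any of them. The 8 cytosolic genes that are not on the list of usual ATF4 targets fell in 6 cases, with a median log2 fold change of -0.70. All 12 that are on it fell, with a median of -0.87. Over all genes tested 11.0% fell.

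Each sample was then set against the vehicle mean. Over the 20 cytosolic genes the median log2 difference was 0.14, -0.07 and -0.11 in the vehicle samples and -0.74, -0.70 and -0.92 in the AG636 samples. AG636 replicate 3 had the lowest level of the 6 samples in 17 of the 20 genes. Over the 16 mitochondrial genes the medians were 0.08, 0.02 and -0.14 with vehicle and -0.37, -0.14 and -0.41 with AG636. AG636 replicate 2 thus had the same median as Vehicle replicate 3 for the mitochondrial genes, whereas for the cytosolic genes all treated samples stood well apart from the controls. Even so, in 8 of the 16 mitochondrial genes every treated sample was below every control, where 20.6% of all genes tested were so separated. The summed mitochondrial level did not overlap either, at 445 to 546 CPM with vehicle and 345 to 388 CPM with AG636.

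**Figure D2:**
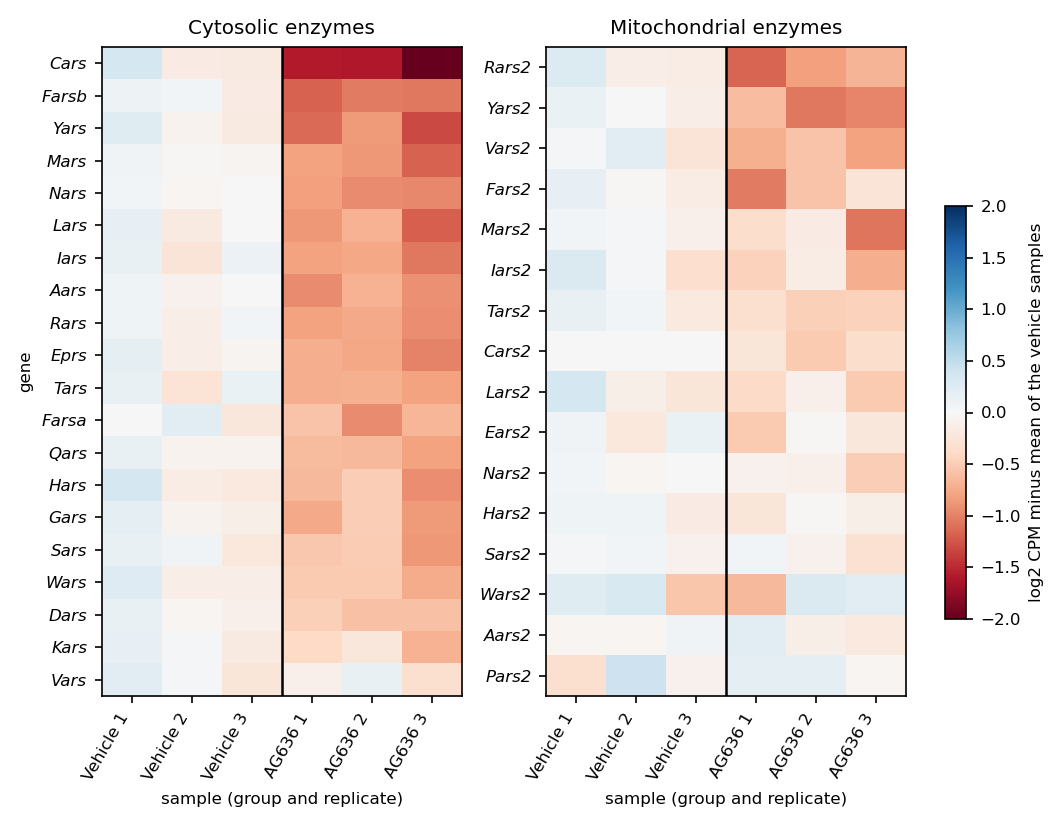
Log2 CPM minus the mean of the vehicle samples (color, red lower and blue higher) for each synthetase gene (rows) in each of the 6 samples (columns); the black line divides vehicle from AG636. The cytosolic panel is red in the AG636 columns except for *Vars*, and the lower rows of the mitochondrial panel show no such split, with *Wars2* low in both Vehicle replicate 3 and AG636 replicate 1.

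*Rars2*, the mitochondrial arginyl-tRNA synthetase, changed most among the mitochondrial genes. It measured 41.5, 31.4 and 31.1 CPM with vehicle and 15.3, 19.4 and 21.5 CPM with AG636, with no overlap (log2 fold change -0.89 ± 0.20 SE, adjusted p = 0.0143). *Yars2*, for tyrosine, measured 59.7, 54.3 and 49.3 CPM with vehicle and 35.5, 26.2 and 27.6 CPM with AG636 (-0.87 ± 0.17, adjusted p = 0.00848). *Vars2*, for valine, measured 43.9, 50.4 and 36.1 CPM with vehicle and 26.3, 29.1 and 24.7 CPM with AG636 (-0.71 ± 0.17, adjusted p = 0.0197). All 3 were separated between the groups. Only the call of *Yars2* held when any one sample was left out. *Rars2* lost its call without AG636 replicate 1, and *Vars2* without AG636 replicate 1, AG636 replicate 3 or Vehicle replicate 2.

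The fourth by adjusted p was *Tars2*, for threonine, with 51.9, 48.3 and 40.7 CPM with vehicle and 37.6, 33.4 and 34.0 CPM with AG636. Its groups did not overlap, but it did not pass (-0.43 ± 0.15 SE, adjusted p = 0.0714). *Fars2*, for phenylalanine, had the largest change among those that did not pass (-0.59 ± 0.23, adjusted p = 0.0871), and it shares 115 bases with *Lyrm4* on the other strand. *Mars2*, for methionine, was at -0.49 ± 0.23 (adjusted p = 0.158). *Iars2*, for isoleucine, was at -0.45 ± 0.19 (adjusted p = 0.119), and it shares 2034 exon bases with *Rab3gap2* on the other strand. *Cars2*, for cysteine, was at -0.37 ± 0.14 (adjusted p = 0.0782) and shares 422 bases with *Naxd* in the same way. *Lars2*, for leucine, was at -0.35 ± 0.21 (adjusted p = 0.258).

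In the other mitochondrial genes the change was smaller than about 1 standard error or little more. *Ears2*, for glutamate, was at -0.24 ± 0.22 (SE, adjusted p = 0.452), with 89 bases shared with *Ubfd1* on the other strand, and *Nars2*, for asparagine, at -0.22 ± 0.23 (adjusted p = 0.533). *Hars2*, for histidine, was at -0.13 ± 0.16 (adjusted p = 0.571), and its start lies head to head with that of *Hars*, with 195 shared bases. *Sars2*, for serine, was at -0.11 ± 0.18 (adjusted p = 0.698), *Wars2*, for tryptophan, at -0.05 ± 0.33 (adjusted p = 0.927) and *Aars2*, for alanine, at -0.03 ± 0.19 (adjusted p = 0.936). *Pars2*, for proline, was the only gene above 0 with TMM, the library scaling used throughout, at 4.81, 7.98 and 5.64 CPM with vehicle and 6.80, 6.80 and 5.85 CPM with AG636. Its samples intermingled (0.06 ± 0.29, adjusted p = 0.896), and the sign turned without Vehicle replicate 1 or Vehicle replicate 3.

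The mitochondrial genes were also measured less precisely. Over the 6 samples they held between 211 and 2403 counts each, against 1073 to 12141 for the cytosolic genes. Standard errors of the log2 fold changes had a median of 0.20 for the mitochondrial and of 0.14 for the cytosolic genes. The same change was thus typically a smaller multiple of its standard error in a mitochondrial gene.

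To compare the compartments for the same amino acid, 16 pairs were formed from 15 cytosolic genes, with *Eprs* set against both *Ears2* and *Pars2*. In 14 pairs the log2 fold change was more negative for the cytosolic gene. The largest difference was in the cysteine pair, where *Cars* changed by 1.37 log2 units more than *Cars2* in the negative direction (difference -1.37). For alanine, the log2 ratio of *Aars* to *Aars2* was 2.73, 2.54 and 2.53 with vehicle and 1.44, 2.03 and 1.89 with AG636, and every treated ratio was lower. The exact permutation test of 3 against 3 (two-sided) cannot go below p = 0.1, and the lowest p adjusted over the 16 pairs was 0.145, so no single pair could pass.

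The reverse order was found for valine and, barely, for arginine. The log2 ratio of *Vars* to *Vars2* was 2.33, 1.97 and 2.16 with vehicle and 2.77, 2.86 and 2.63 with AG636, so that the cytosolic gene was relatively higher in every treated sample (difference 0.61, exact permutation p = 0.1, adjusted 0.145). For arginine the genes changed by nearly the same amount (difference 0.06), and their ratios overlapped between the groups (exact permutation p = 0.8).

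**Figure D3:**
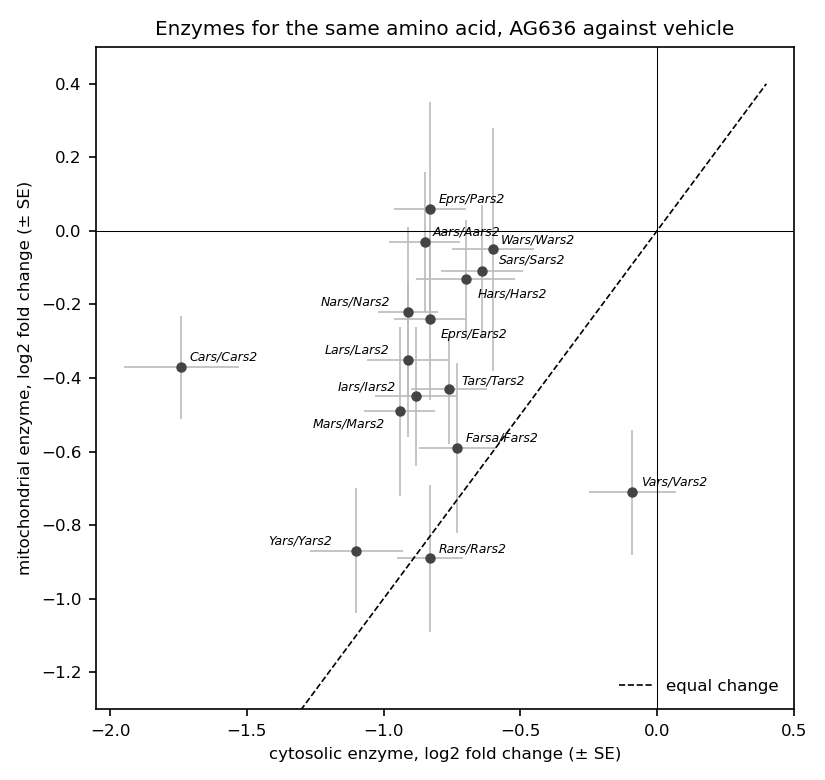
Log2 fold change of the mitochondrial gene (y axis) against that of the cytosolic gene for the same amino acid (x axis) in 16 pairs, with standard errors; the dashed line marks equal change. All pairs but 2 lie above and to the left of the line, *Vars* with *Vars2* lies far to its right at a difference of 0.61, and *Rars* with *Rars2* lies almost on it.

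Genes that work next to the synthetases were described from lists. Of 18 other genes on the ATF4 list that could be tested (22 were listed), 14 fell and 1 rose, where 11.0% and 10.3% of all genes tested did. The median log2 fold change of these 18 was -0.82. The list and the 14 include *Atf4* itself, which measured 387, 387 and 355 CPM with vehicle and 204, 243 and 165 CPM with AG636, without overlap (log2 fold change -0.88 ± 0.15 SE, adjusted p = 0.00517). The lowest adjusted p values belonged to *Mthfd2*, of mitochondrial folate metabolism (-1.28, adjusted p = 0.00202), *Psat1*, of serine synthesis (-0.80, adjusted p = 0.00298), and *Shmt2*, which converts serine to glycine (-0.99, adjusted p = 0.00411). *Ddit4*, an inhibitor of mTORC1 signaling, was the one that rose (1.75, adjusted p = 0.00521).

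Partners in tRNA charging were described next. Of 13 such genes 3 fell (23.1%, where 11.0% of all genes tested fell), and the median was -0.52. In edgeR's test 0 rose, as 0 did at an unadjusted p under 0.05, with DESeq2 or with limma-voom. Among those that fell were *Ptrh2*, a peptidyl-tRNA hydrolase (-0.67, adjusted p = 0.0147), and *Eef1e1*, which encodes a further scaffold of the multi-synthetase complex (-0.82, adjusted p = 0.0362). Of 26 tested genes for tRNA processing and export 11 fell (42.3% beside the same 11.0%) and 1 rose, with a median of -0.37. *Rpp40* (-1.51, adjusted p = 0.00383) and *Pop1* (-0.99, adjusted p = 0.00617) encode subunits of RNase P, which trims the 5′ end of precursor tRNAs. *Elac2*, for the enzyme that trims the other end, fell by 0.75 on the log2 scale (adjusted p = 0.00971), and its relative *Elac1* rose (0.96, adjusted p = 0.0376), a call that DESeq2 did not make.

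Of the 6 factors that carry charged tRNA to the ribosome or recharge the carrier, 4 fell, with a median of -0.62. That is 66.7% of them, where 11.0% of all genes tested fell. *Eef1g* (-0.87, adjusted p = 0.00203) and *Eef1d* (-0.72, adjusted p = 0.0064) encode subunits of the cytosolic exchange factor. *Tufm* encodes the mitochondrial carrier (-0.98, adjusted p = 0.00699). The cytosolic carrier *Eef1a1* did not pass the threshold (-0.10), and its many processed copies in the genome make its count uncertain.

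**Figure D4:**
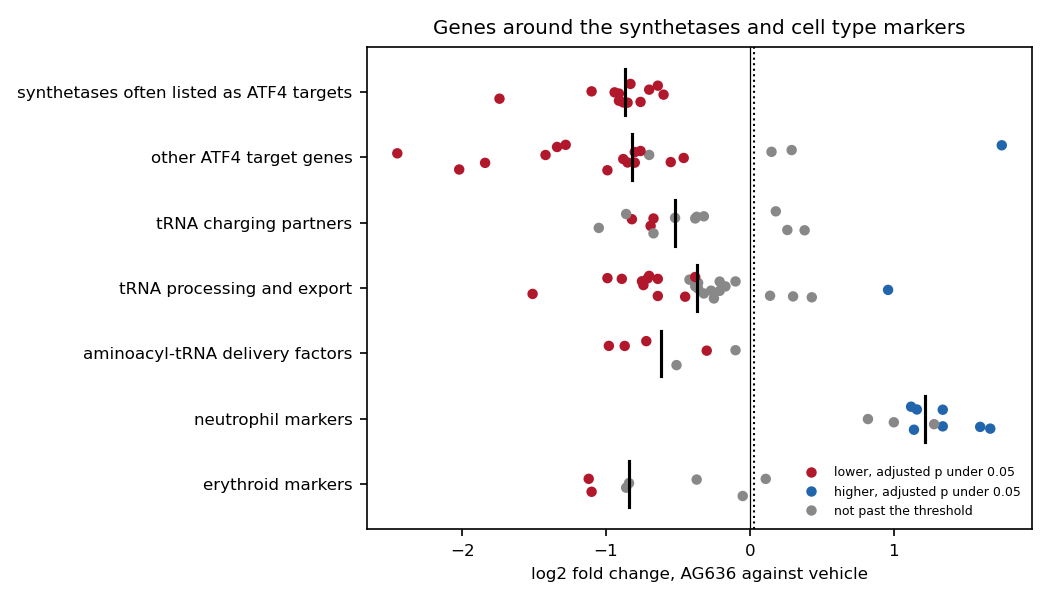
Log2 fold change (x axis) of each tested gene in 7 lists (y axis), red where it fell and blue where it rose at an adjusted p under 0.05; black bars are list medians and the dotted line is the median of all genes (0.03). The synthetases listed as ATF4 targets and the other ATF4 targets have medians of -0.87 and -0.82, and the neutrophil markers one of 1.22.

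Several lists of cell type markers also differed between the groups. Whether leukemia cells or other cells held these transcripts cannot be told apart in such samples. Neutrophil markers rose in 7 of 10 cases (median log2 fold change 1.22), with the lowest adjusted p for *Ngp*, *Cxcr2* and *Ltf*. Of 9 monocyte and macrophage markers 3 rose, or 4 with DESeq2 and 1 with limma-voom, with a summed level of 114 to 195 CPM with vehicle and 231 to 388 CPM with AG636. Of 6 mast cell and basophil markers 2 rose, or 1 with DESeq2 and 1 with limma-voom, and 2 of the 6 had log2 fold changes below 0. Their summed level was 467 to 730 CPM with vehicle and 733 to 1371 CPM with AG636. Erythroid markers fell in 2 of 7 cases, with sums that overlapped, from 1641 to 4663 CPM with vehicle and from 1941 to 3220 CPM with AG636. Over all genes tested 10.3% rose and 11.0% fell in edgeR's test, and the marker lists were not tested against those shares. The B cell markers summed to 5.53 to 14.2 CPM with vehicle and 14.0 to 19.3 CPM with AG636, and the T and NK cell markers to 200 to 333 CPM and 260 to 499 CPM, with overlap in both. The latter sum was nearly all *Nkg7* (191 to 326 CPM and 253 to 493 CPM), so it does not describe T or NK cells. *Cd3e*, which defines T cells, lay at or under 0.619 CPM in every sample and was too low to test. The part of these markers in the lower synthetase levels was not tested.

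**Figure D5:**
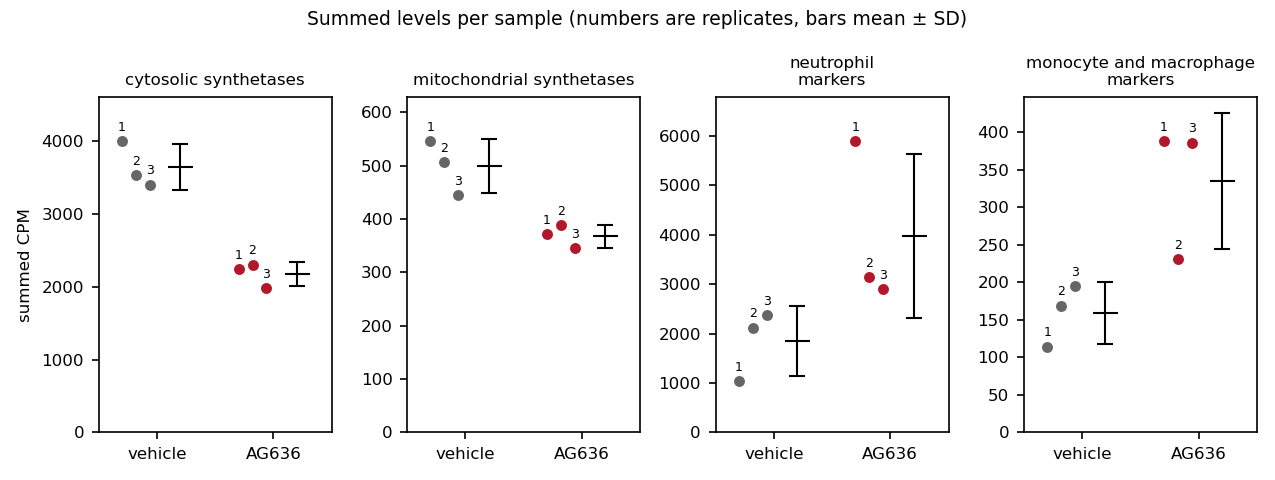
Summed CPM (y axis, from 0) of the cytosolic synthetases, mitochondrial synthetases, neutrophil markers and monocyte markers in each sample, with replicate numbers, and the mean ± SD of 3 mice per group. Cytosolic sums lie between 3399 and 3996 CPM with vehicle and between 1982 and 2301 CPM with AG636, and AG636 replicate 1 has the highest neutrophil sum.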

How the data were processed

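The members and the gene lists were chosen with earlier results of these data known. The authors deposited 1 table of read counts per gene for the 6 samples (3 per group). Per the labels and methods, cells were sorted and RNA was made into QuantSeq libraries. After trimming by cutadapt, HISAT2 2.0.4 mapped the reads to mm10 and featureCounts of Subread counted them. The submitters' notes give cutadapt 1.9.1 and Subread 1.5.0-p3. Strand setting and molecular identifiers were not given in the sources used here. GENCODE M21 paired 54723 of 54838 identifiers with symbols, and 0 per-sample columns went unused.

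The test was that of edgeR 4.0.16 under R 4.3.3 (filterByExpr at 10 counts and a total of 15, TMM, quasi-likelihood test, treatment as the only term). Called genes have a Benjamini-Hochberg adjusted p under 0.05 over all genes tested. Standard errors are the absolute log2 fold change over the square root of F, and CPM use TMM-scaled library sizes. The scripts were first tested on simulated data. Replicates of a group differed by more than sampling noise (chi-square per degree of freedom 6.22 to 14.6), so each was counted once. All 38 members are named. Values per sample are given for the 6 cytosolic and 4 mitochondrial genes with the lowest adjusted p, uncalled genes above 0, the scaffolds, *Gars*, *Kars* and *Eprs*, while *Vars*, *Yars*, *Iars* and *Tars* were added after their values were seen. Of other lists, up to 3 genes per direction with the lowest adjusted p are named, with *Atf4* and *Eef1e1* (1 gene is not reported here); *Ddit3*, *Eef1a1*, *Kit*, *Itgam*, *Flt3*, *Nkg7* and *Cd3e* were named after their values were seen. Alternatives were DESeq2 1.42.0, limma-voom (limma 3.58.1), other scalings and filters, thinning, a replicate block, leaving out each sample and an adjusted p under 0.01. Promoter windows are from RefSeq (GRCm38.p6), and the table held no entry for *Cars*, *Hars*, *Lars*, *Mars*, *Nars*, *Rars*, *Vars*, *Wars*, *Hars2* and *Pars2*.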

Additional observations from a re-analysis of the deposited data

How the results depend on the processing

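Of 570 member values recomputed under the alternatives, 537 kept their direction and side of the threshold, 13 lost the call, 10 gained it and 10 changed sign. The cytosolic count stayed between 14 and 19 and 14 of these genes were called under all 15 alternatives at an adjusted p under 0.05. The cytosolic median ranged from -0.90 to -0.70 and the mitochondrial median from -0.43 to -0.26. At an adjusted p under 0.01, 1 mitochondrial synthetase, 14 cytosolic ones, 325 genes lower and 231 higher were called. Leaving out each sample in turn gave 1 to 5 mitochondrial synthetases, 452 to 1298 genes lower and 399 to 1074 higher; both counts were lowest without AG636 replicate 3, and without Vehicle replicate 1 they were 701 and 524, without Vehicle replicate 2 692 and 500, and without AG636 replicate 1 630 and 605. Fewer samples were fitted there. With library size alone, *Aars2* was at 0.06 and *Wars2* at 0.04. With a sample left out, the ranges were -0.23 to 0.02 for *Vars*, -0.16 to 0.06 for *Aars2*, -0.11 to 0.30 for *Pars2* and -0.28 to 0.18 for *Wars2*; the cause was not tested. Deviations of same-numbered samples from their group means had correlations of -0.06, -0.18 and 0.22, and those of different-numbered samples ranged from -0.38 to 0.36. With 3 mice per group these values cannot show whether mice were paired. No pairing was given in the sources used here. The replicate block gave 19 cytosolic and 3 mitochondrial synthetases, 1046 genes lower and 914 higher, with *Kars* called (adjusted p = 0.043). Precision is limited by 3 mice per group and, for mitochondrial genes, by their counts.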
